A study of Mus musculus with 16 samples.

Results

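The genes described here are factors, receptors and ligands of the primitive streak and of the mesoderm that leaves it. They were taken from a list of 38 gene symbols, and 37 of the 38 were matched to a probe set by their symbol, of 18193 genes in the array's annotation. Where several probe sets name a gene, the one with the highest mean over all 16 arrays was read. T was not matched under the symbol T and was not analysed here. The array does measure it, since the study shows T (brachyury) RNA by microarray for its cell populations. In mesodermal cells of the NERT line without OHT, 16 members were higher and 1 was lower than in ESCm of the same line, among the 26 members strong enough to be tested. Over all probe sets tested, 15.4% were higher and 6.74% lower.

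The primitive streak is the region of the early embryo through which cells leave the epiblast and become mesoderm and endoderm. Nodal, Wnt and FGF signals induce transcription factors there such as Mixl1 and Eomes, and the descendants of these cells later divide into presomitic, lateral, heart and blood mesoderm, each with its own regulators. Notch signalling works through the freed intracellular domain of the receptor, which joins the DNA-binding protein RBP-J at target genes, and in the embryo it is best known in mesoderm for the segmentation of the somites.

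The samples were EB5 mouse embryonic stem cells (ESC) and mesodermal cells derived from them. EB5 NERT cells carry murine Notch1 intracellular domain as a fusion that 4-hydroxytamoxifen (OHT) activates, expressed from a pCAG vector, and EB5 control cells carry the vector without it. NERT mesodermal cells were kept on collagen IV for 4 days and gave 2 arrays each with CHX and OHT, with CHX alone, with OHT alone, and with neither. CHX, cycloheximide, blocks protein synthesis and was added at 50 µg/ml for 4 h in parallel with OHT, which was given at 1 µM for 4 h. Control mesodermal cells at day 4 gave 1 array with OHT and 1 without. ESC at day 0 gave 1 array each with and without OHT for NERT cells in ectodermal medium (ESCe), for NERT cells in mesodermal medium (ESCm) and for control cells in ESCm. In all, 12 arrays came from the NERT line and 4 from the control line, no sort of the cells is described, and the NERT and control cells are different transfected lines, so that an effect of the transgene and a difference between clones cannot be told apart. In RNA from whole cultures, fewer cells of a type and less RNA per cell cannot be told apart.

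Values are linear dChip intensities as deposited, with array medians between 42 and 46.9. Changes were tested with limma on log2(value + 25) in 1 fit over the 25847 probe sets whose mean reached 50 in at least 1 group, and a change was called at an adjusted p under 0.05. On this scale the changes of weak probe sets are understated. The spread came from the 4 groups of 2 arrays (4 residual degrees of freedom), and single arrays are taken to vary as these do. The Notch targets Hes5 and Nrarp, read to check the induction, rose with OHT in mesodermal cells by 4.93 and 3.02 on the log2 scale. Nothing in the labels says that the arrays of a group came from separate cultures, so the p-values measure the spread between arrays, which may be technical.

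Of the 37 members, 26 passed the filter on low values. The other 11 stayed under a mean of 50 in all 12 groups, with array values between 1.55 and 49.2. They were the heart and limb regulators Nkx2-5, Tbx20, Tbx5, Tbx2 and Hand2, the kidney and heart mesoderm regulator Osr1, the somite factors Meox1 and Meox2, the muscle factor Myod1, the presomitic factor Msgn1 and the caudal factor Cdx4. Nkx2-5 lay just outside the filter with a highest group mean of 48.3, followed by Tbx20 with 44.5 and Msgn1 with 43.1. Isl1, a regulator of the second heart field, lay just inside with 54.1, and Pax3, a factor of the dermomyotome, with 68.3. Of the 26 that passed, 12 did so through mesodermal groups alone, 10 through NERT groups alone, 3 (Foxc1, Foxc2 and Myf5) through groups with OHT alone and 3 (Gsc, Lhx1 and Tbx6) through groups without CHX alone. For these the filter favours a difference, so the counts below are descriptions of the members and carry no weight of their own.

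In NERT mesodermal cells without OHT against NERT ESCm without OHT, 16 of the 26 members were higher (15.4% of all probe sets tested were) and Tcf15 was lower (6.74% of all). The median change of the members was 1.28 on the log2 scale, against 0.07 over all probe sets. In the control line, averaged over both OHT states, 8 members were higher (8.33% of all) and 2, Tcf15 and Pdgfra, were lower (5% of all), with a median of 0.31 against 0.03. The difference between the lines in the day 4 change was called for 1 member, Aplnr (0.0503% of all probe sets had the larger change in the NERT line, 0.00774% the smaller). Of the 26 members, 23 lay above 0 in this difference, and 15 had an unadjusted p under 0.05 in limma (6.82% of all probe sets). Their median was 0.94, against 0.07 over all probe sets. In a simulation, 11% of 2-fold changes were recovered in this comparison. Before any filter on low values, 18 of the 37 members were higher and 1 lower in the NERT line, and 7 higher and 2 lower in the control line. Of all 45037 probe sets, 3400 were then higher and 1546 lower in the NERT line, and 1686 higher and 1036 lower in the control line. Of the 11 weak members, Msgn1 (0.86, limma adjusted p = 0.0189) and Meox2 (0.54, 0.0431) were then called at day 4 in the NERT line, at intensities under 50.

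**Figure D1:**
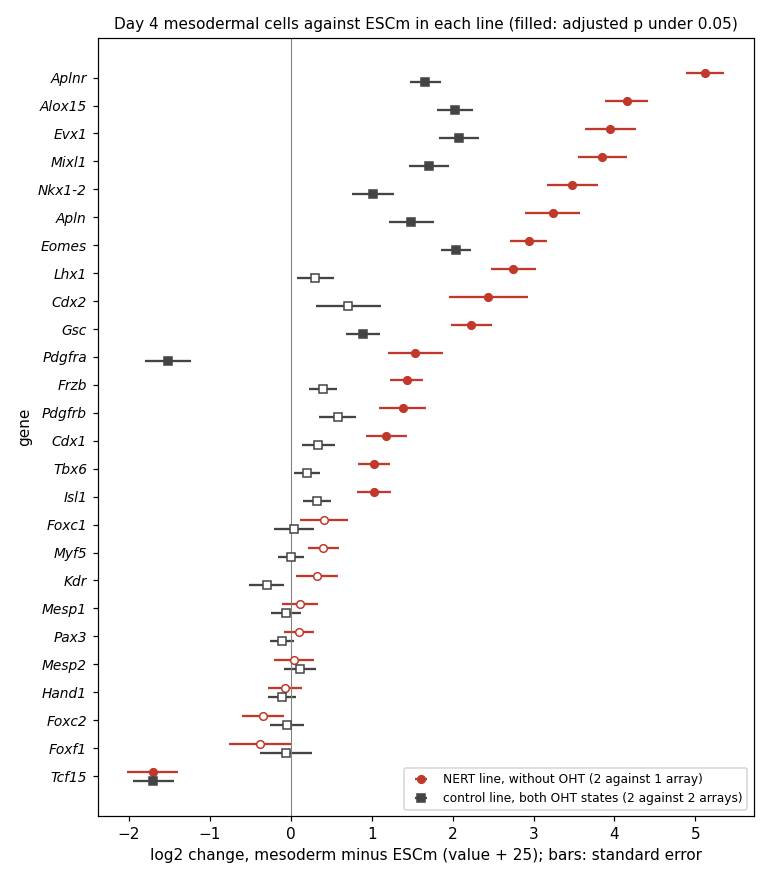
Log2 change between day 4 mesodermal cells and ESCm for each of the 26 tested members, with the NERT line without OHT as circles (2 arrays against 1) and the control line over both OHT states as squares (2 against 2), standard errors as bars and filled symbols for a limma adjusted p under 0.05. Aplnr stands at 5.12 in NERT cells and 1.66 in control cells, Pdgfra at 1.54 and -1.52, and Tcf15 at -1.71 and -1.70.

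Of the streak factors, all 6 tested members were called in NERT cells and 5 of 6 in control cells. Mixl1, a homeodomain factor of the streak, stood at 1254 and 856 in NERT mesodermal cells without OHT and at 48.5 in NERT ESCm without OHT. In control mesodermal cells with and without OHT it stood at 237 and 250.3, against 58.1 and 55.8 in control ESCm. No mesodermal array without CHX overlapped the ESC arrays, and both NERT arrays lay above the control arrays. The log2 changes were 3.85 (SE 0.30, limma adjusted p = 2.47e-05) in NERT cells and 1.71 (SE 0.25, limma adjusted p = 0.00121) in control cells.

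Eomes, the T-box factor that opens the way from epiblast to mesoderm and endoderm, was at 746 and 556 in NERT mesodermal cells without OHT, against 62.4 in NERT ESCm. The control line had 525 and 505 at day 4 with and without OHT, against 102 and 111 in ESCm. All mesodermal arrays exceeded all ESC arrays, by 2.94 (SE 0.23, limma adjusted p = 2.48e-05) in NERT cells and 2.04 (SE 0.19, limma adjusted p = 0.000112) in control cells. A further probe set of Eomes gave 2.07 (SE 0.27, limma adjusted p = 0.000463) and 1.66 (SE 0.22, limma adjusted p = 0.000839).

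Evx1, a homeobox factor of the posterior streak, measured 626 and 434 in NERT mesodermal cells without OHT and 10.5 in NERT ESCm. The control line had 131 and 142 in mesodermal cells with and without OHT and 13.4 and 13.0 in ESCm. Here too the day 4 arrays lay above the ESC arrays without overlap, and the changes were 3.95 (SE 0.31, limma adjusted p = 2.35e-05) and 2.08 (SE 0.25, limma adjusted p = 0.000439). Gsc, a homeobox factor of the anterior streak, was weaker, with 147 and 86.2 in NERT mesodermal cells and 4.57 in NERT ESCm (2.23), and 35.9 and 39.3 in control mesodermal cells with and without OHT, against 5.19 and 13.0 in control ESCm (0.89). With the control arrays without OHT alone, the adjusted p of Gsc in the control line was 0.205 in limma, and that of Nkx1-2 was 0.172.

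Lhx1, a LIM-homeodomain factor of the anterior streak and its mesoderm, was at 194 and 121 in NERT mesodermal cells without OHT and 1.48 in NERT ESCm, a change of 2.75 (SE 0.28, limma adjusted p = 0.000105). Control mesodermal cells had 15.6 and 6.07 with and without OHT, against 4.23 and 3.51 in control ESCm, and the change there was 0.30 (SE 0.23, limma adjusted p = 0.462). The control arrays of both populations thus lay at the low end of the intensity range. Nkx1-2, a homeobox gene of the caudal epiblast and streak, was at 547 and 401 in NERT mesodermal cells and 19.3 in NERT ESCm, and at 60.3 and 70.8 in control mesodermal cells with and without OHT, against 18.3 and 21.6 in control ESCm. The changes of Nkx1-2 were 3.48 (SE 0.32, limma adjusted p = 5.84e-05) and 1.01 (SE 0.26, limma adjusted p = 0.0286). A weaker probe set of Nkx1-2 gave 0.74 (SE 0.18, limma adjusted p = 0.0128) in NERT cells and -0.01 (SE 0.14, limma adjusted p = 0.99) in control cells.

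**Figure D2:**
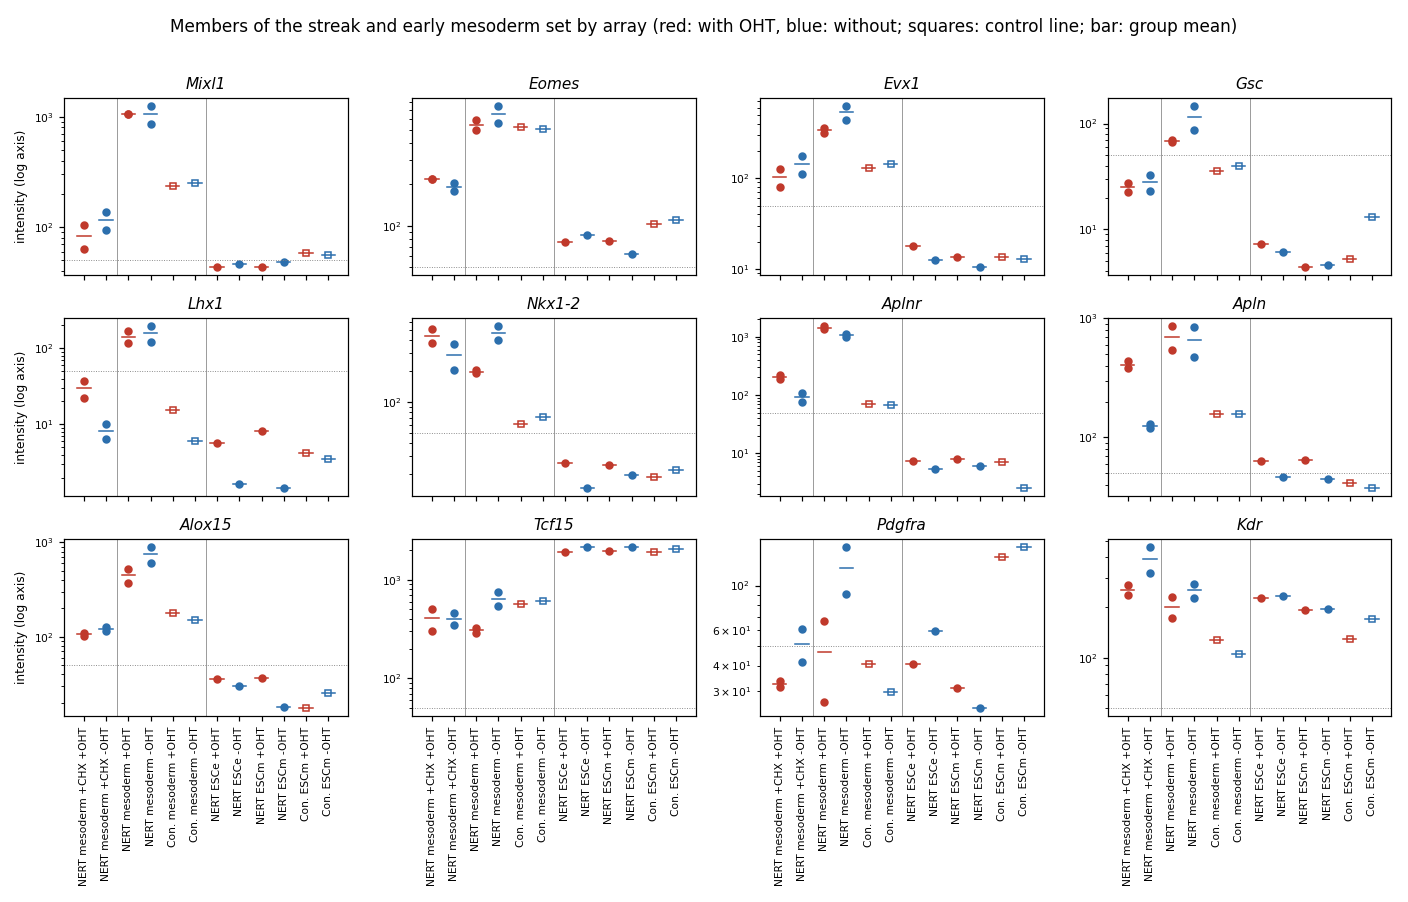
Intensity on a log axis, scaled for each gene, of 12 members in every array of the 12 groups, with OHT in red and without in blue, control cells as open squares, horizontal bars for group means and a dotted line at the filter value of 50. Mixl1 ranges between 856 and 1254 in NERT mesodermal cells without CHX and between 43.4 and 58.1 in ESC.

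Factors of the mesoderm after it leaves the streak moved less. Tbx6, which specifies presomitic mesoderm, was the member of this group called at day 4 in the NERT line, with 67.2 and 71.9 in mesodermal cells and 21.3 in ESCm (1.03, SE 0.20, limma adjusted p = 0.00427). In the control line the change of Tbx6 was 0.20 (SE 0.16, limma adjusted p = 0.479). Mesp1, a basic helix-loop-helix factor of nascent and cardiac mesoderm, read between 201 and 255 in the ESC arrays and between 227 and 332 in the mesodermal arrays without CHX, so that the populations overlapped. Its day 4 changes were 0.11 (SE 0.22) in NERT cells and -0.06 (SE 0.18) in control cells, and those of Mesp2, a segmentation factor, were 0.04 (SE 0.25) and 0.11 (SE 0.20).

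The caudal factors Cdx1 and Cdx2, homeobox genes that pattern the posterior body, were higher at day 4 in the NERT line. Cdx2 was at 373 and 361 in NERT mesodermal cells without OHT and 47.1 in ESCm (2.44, SE 0.49, limma adjusted p = 0.00544). Cdx1 was at 81.5 and 81.0 and 21.9 in the same groups (1.18, SE 0.25, limma adjusted p = 0.00681). In the control line neither was called, with 0.71 (SE 0.40) for Cdx2 and 0.34 (SE 0.20) for Cdx1.

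Among receptors and ligands, Aplnr, the apelin receptor found on early mesoderm, had the largest day 4 change of the 26 members in the NERT line. It was at 1005 and 1098 in NERT mesodermal cells without OHT and 5.94 in NERT ESCm, and at 70.0 and 68.1 in control mesodermal cells with and without OHT, against 7.12 and 2.59 in control ESCm. Each mesodermal group lay above each ESC group, and the NERT arrays lay far above the control arrays. The changes were 5.12 (SE 0.23, limma adjusted p = 3.15e-06) and 1.66 (SE 0.19, limma adjusted p = 0.00031). The difference between the changes without OHT was 3.37 (SE 0.35, limma adjusted p = 0.018). It lost its call without replicate 1 or 2 of NERT mesoderm -OHT (adjusted p = 0.052 and 0.066 in limma) and without replicate 1 or 2 of NERT mesoderm +CHX -OHT (0.0611 and 0.0607).

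Apln, the peptide ligand of this receptor, was at 849.7 and 469 in NERT mesodermal cells without OHT and 44.8 in NERT ESCm (3.24, SE 0.34, limma adjusted p = 0.000118). In control cells it was at 159 and 156 in mesodermal cells with and without OHT, against 41.8 and 38 in ESCm (1.49, SE 0.28, limma adjusted p = 0.00537). Receptor and ligand were thus both higher at day 4 in both lines. Without the OHT arrays the control line's change of Apln had an adjusted p of 0.0581 in limma.

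Kdr encodes Flk1, the surface marker by which the study followed mesodermal differentiation. Cells with this protein were counted by flow cytometry, shown for cultures on stromal cells. The values here are RNA, at day 4 from cultures on collagen IV, and are not the same measure. Kdr RNA was not called at day 4 in either line. It was at 229 and 277 in NERT mesodermal cells without OHT and 197 in NERT ESCm, and at 128 and 106 in control mesodermal cells with and without OHT, against 129.9 and 172 in control ESCm. The mesodermal and ESC arrays overlapped, and the changes were 0.32 (SE 0.26, limma adjusted p = 0.435) and -0.30 (SE 0.22, limma adjusted p = 0.418).

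Pdgfra, the PDGF receptor of paraxial and nascent mesoderm, was higher at day 4 in the NERT line and lower in the control line. It was at 90.5 and 155 in NERT mesodermal cells and 24.6 in NERT ESCm (1.54, SE 0.34, limma adjusted p = 0.00911), and at 40.6 and 29.5 in control mesodermal cells with and without OHT, against 138 and 156 in control ESCm (-1.52, SE 0.28, limma adjusted p = 0.00511). The difference between the lines was 3.27 (SE 0.53, limma adjusted p = 0.0836), so it did not pass the test. A further probe set of Pdgfra gave -0.54 (SE 0.33, limma adjusted p = 0.279) in the NERT line, opposite in sign, and -0.17 (SE 0.27, limma adjusted p = 0.746) in the control line, and the mean of the probe sets gave 0.56 (limma adjusted p = 0.0898) in the NERT line. In control ESCm with and without OHT Pdgfra lay above NERT ESCm, and so did the summed intensity of the endoderm markers, which was 967 to 978 in control mesodermal cells and 1632 to 1732 in control ESCm, against 770 to 833 in NERT ESC. In the control line 4 of 10 tested endoderm markers were lower at day 4 (Gata6 -1.99, Sox17 -1.20, Sox7 -1.17 and Gata4 -0.70 on the log2 scale) and 0 higher. Their part in the change of Pdgfra was not tested.

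Pdgfrb, the PDGF receptor of mural and mesenchymal cells, was higher in the NERT line, with 266 and 297 in mesodermal cells and 92.2 in ESCm (1.38, SE 0.29, limma adjusted p = 0.00619). NERT ESC with OHT read 251 and 249.8 in ESCe and ESCm, close to the mesodermal arrays. Frzb, a secreted Wnt antagonist, was at 91.3 and 116 in NERT mesodermal cells and 22.6 in ESCm (1.43, SE 0.20, limma adjusted p = 0.000727), and the control line's change was 0.40 (SE 0.17, limma adjusted p = 0.152).

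Of the somite and muscle factors, Tcf15, a basic helix-loop-helix factor of paraxial mesoderm, ran against the streak genes. It was at 745 and 544 in NERT mesodermal cells without OHT, against 2138 in NERT ESCm, and at 563 and 615 in control mesodermal cells with and without OHT, against 1903 and 2048 in control ESCm. All mesodermal arrays lay below all ESC arrays, and the changes were -1.71 (SE 0.31, limma adjusted p = 0.00298) and -1.70 (SE 0.25, limma adjusted p = 0.00147). Foxc1, Foxc2, Pax3 and Myf5 were not called at day 4 in either line, with changes between -0.34 and 0.41.

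Of the lateral and heart mesoderm factors, Isl1 was called in the NERT line at a low level, with 51.8 and 46.4 in mesodermal cells and 11.3 in ESCm (1.03, SE 0.21, limma adjusted p = 0.00545). Foxf1, a factor of lateral plate mesoderm, and Hand1, a factor of extraembryonic and lateral mesoderm, were not called in either line. Alox15, a lipoxygenase, was at 901 and 613 in NERT mesodermal cells and 18.2 in NERT ESCm (4.15, SE 0.27, limma adjusted p = 1.01e-05). In control cells it was at 179.6 and 151 in mesodermal cells with and without OHT, against 17.6 and 25.6 in ESCm (2.03, SE 0.22, limma adjusted p = 0.000246). The Alox15 arrays of the populations did not overlap in either line.

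Signals and responses of the streak outside the 38 genes were read from a list of 26, of which 24 were tested. In the NERT line 15 were higher and 1 lower at day 4, led by the Wnt-responsive factor Sp5 (5.15), Fgf5 (4.31), Fgf8 (4.15) and the Wnt agonist Rspo3 (3.66, all log2 changes). In the control line 11 were higher and 0 lower. Of 20 pluripotency markers, 10 were lower and 0 higher at day 4 in the NERT line, and 3 lower and 1 higher in the control line. Of markers of other fates in NERT cells, 1 of 9 tested blood and endothelium genes was higher (Lmo2, 2.55) and 1 lower, 1 of 10 endoderm genes was higher (Foxa2, 1.07) and 0 lower, 1 of 9 neuroectoderm genes was higher and 4 lower, and 1 of 11 muscle and mural genes was higher and 2 lower. Their part in the members' changes was not tested.

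Set against control mesodermal cells, both without OHT, NERT mesodermal cells had 9 members higher (0.99% of all probe sets tested were) and 0 lower (0.294% of all). They were Aplnr (3.53 on the log2 scale), Lhx1 (2.52), Nkx1-2 (2.36), Alox15 (2.13), Mixl1 (1.95), Apln (1.86), Evx1 (1.71), Pdgfrb (1.65) and Frzb (1.27). The median over the 26 members was 1.01, against 0.05 over all probe sets. With no filter on low values, 6 of 37 members were higher (135 of 45037 probe sets were). Between the lines in ESCm without OHT, 0 members were called (0.0193% of all probe sets were, and 2 members had an unadjusted p under 0.05 in limma). Of 5 Notch pathway genes (Hes5, Nrarp, Hey1, Hes1 and Notch1), Nrarp was higher in NERT than in control mesodermal cells, both without OHT (2.51). The other 4 were not called. Their part in the members' difference between the lines was not tested.

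For each of the 9 called members both NERT arrays lay above the control array. That single control array entered every fit of this comparison and was never left out. Alox15 was at 901 and 613 in NERT mesodermal cells and 151 in control mesodermal cells (2.13, SE 0.27, limma adjusted p = 0.00416), and Lhx1 at 194 and 121 and 6.07 (2.52, SE 0.28, limma adjusted p = 0.0025). Nkx1-2 was at 547 and 401 in NERT mesodermal cells and 70.8 in control mesodermal cells (2.36, SE 0.32, limma adjusted p = 0.00673). Pdgfrb had 266 and 297 in NERT and 72.3 in control mesodermal cells (1.65, SE 0.29, limma adjusted p = 0.0222), and Frzb had 91.3 and 116 and 28.0 (1.27, SE 0.20, limma adjusted p = 0.0145).

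Aplnr, Lhx1, Nkx1-2 and Alox15 passed in limma with each of the 8 replicated arrays left out in turn. Without replicate 1 of NERT mesoderm -OHT, 5 members were called, and Mixl1, Evx1, Apln and Pdgfrb had adjusted p of 0.0773, 0.142, 0.129 and 0.0852 in limma. Without replicate 2 of that group, Frzb had 0.0794 and Pdgfrb 0.0966, and without replicate 1 or 2 of NERT mesoderm +CHX -OHT, Apln had 0.06 and 0.0596, and Pdgfrb without the first of these 0.0504. The summed intensity of the 20 pluripotency markers was 24871 to 27910 in NERT mesodermal cells without OHT and 37358 to 37786 in the control mesodermal arrays, with 44799 to 47061 in ESC, and of these markers Fgf4, also on the list of streak signals, was lower in the NERT line (-2.03). Their part in the difference between the lines was not tested. Rspo3 (2.86), Sp5 (1.86) and the retinoic acid hydroxylase Cyp26a1 (1.80) were higher in NERT mesodermal cells, among 4 higher and 1 lower of the 24 streak signals.

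Mixl1, Eomes, Evx1, Gsc and Lhx1 were lower with CHX in cells with and without OHT, Gsc and Lhx1 being among the 3 members that passed the filter through groups without CHX alone. In NERT mesodermal cells without OHT, 13 members were lower with CHX than without it (11.3% of all probe sets tested were) and 2 were higher (19.6% of all). With OHT present, 11 were lower with CHX (13.7% of all) and 3 higher (24.6% of all). The members' medians were -0.59 without OHT and -0.40 with OHT, against 0.04 and 0.07 over all probe sets. These comparisons share no array, and 10 members were lower in both, which is 76.9% of the 13 and 90.9% of the 11. They were Mixl1, Eomes, Evx1, Gsc, Lhx1, Mesp1, Tbx6, Cdx1, Aplnr and Alox15. The spread of both comparisons came from the same fit, so their calls are not independent. The overlap over all probe sets was not counted, so it cannot be said whether that of the members is larger.

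**Figure D3:**
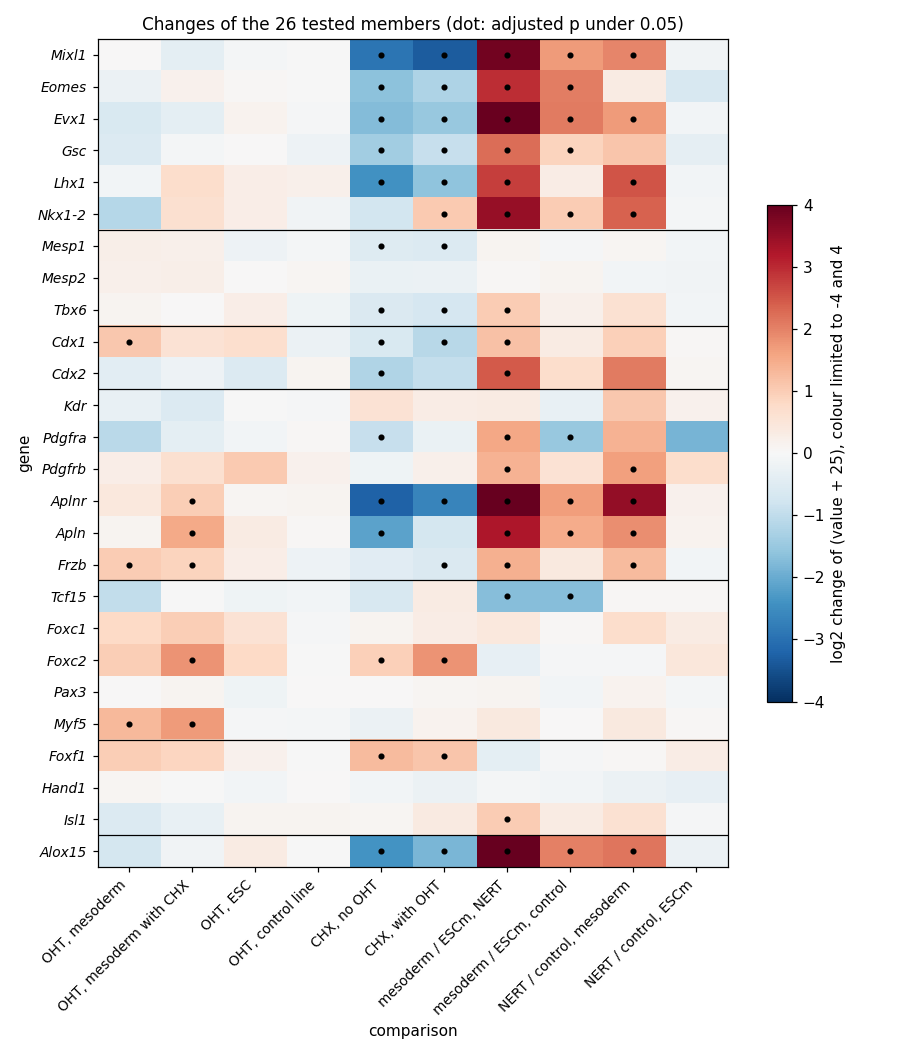
Log2 change of each of the 26 tested members (rows, with lines between groups of roles) in 10 comparisons (columns), red for higher and blue for lower, with a dot where the limma adjusted p was under 0.05 and colours limited to -4 and 4. In the CHX columns the streak factors other than Nkx1-2 are blue with a dot, as is Aplnr, with Mixl1 at -2.93 without OHT and -3.34 with OHT, and Aplnr at -3.22 and -2.65.

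Mixl1 was at 137 and 93.8 with CHX and 1254 and 856 without it in cells without OHT, and at 63.5 and 104 with CHX and 1057 and 1059.8 without it in cells with OHT. The groups did not overlap, and the changes were -2.93 (SE 0.25, limma adjusted p = 3.56e-05) and -3.34 (SE 0.25, limma adjusted p = 1.17e-05). Aplnr was at 108 and 75.8 with CHX and 1005 and 1098 without it in cells without OHT (-3.22, SE 0.19, limma adjusted p = 5.08e-06), and at 187 and 223 and 1335 and 1503 in cells with OHT (-2.65, SE 0.19, limma adjusted p = 9.24e-06). With CHX its level was thus near that of the control mesodermal arrays without CHX, 70.0 and 68.1, in cells without OHT.

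Lhx1 without OHT was at 10.1 and 6.49 with CHX, against 194 and 121 without it (-2.43, SE 0.23, limma adjusted p = 6.66e-05). Alox15 was at 114 and 127 with CHX and 901 and 613 without it (-2.40, SE 0.22, limma adjusted p = 5.45e-05), and Apln at 129 and 119.7 and 849.7 and 469 (-2.14, SE 0.28, limma adjusted p = 0.000356). In each of these genes the CHX arrays lay below the arrays without CHX. Evx1 had 176 and 110.4 with CHX and 626 and 434 without it (-1.73, SE 0.25, limma adjusted p = 0.000672), Eomes had 204 and 181 and 746 and 556 (-1.63, SE 0.19, limma adjusted p = 0.000196), and Gsc had 23.1 and 32.8 and 147 and 86.2 (-1.39, SE 0.21, limma adjusted p = 0.000749).

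These 8 members kept their call in limma with each array left out. The remaining falls without OHT were smaller and less stable. Cdx2 was at 168 and 125 with CHX and 373 and 361 without it (-1.20), Pdgfra at 60.5 and 41.5 and 90.5 and 155 (-0.93), and Cdx1 at 53.1 and 38 and 81.5 and 81.0 (-0.60). Tbx6 had 33.3 and 44.0 with CHX and 67.2 and 71.9 without it (-0.58), and Mesp1 193 and 151 and 259 and 253 (-0.52). Their adjusted p in limma lay between 0.022 (Tbx6) and 0.0485 (Mesp1), and each lost its call without replicate 1 and without replicate 2 of NERT mesoderm +CHX -OHT, except Tbx6, which kept it without replicate 2. The highest adjusted p was 0.187 for Cdx2, 0.243 for Cdx1 and 0.271 for Mesp1, all without replicate 2 of that group, 0.175 for Tbx6 without replicate 1, and 0.202 for Pdgfra without replicate 2 of NERT mesoderm -OHT. Cdx1, Cdx2, Mesp1 and Tbx6 also lost their call without replicate 1 or 2 of -OHT, and Cdx1 and Cdx2 without either array of +OHT (0.0501 to 0.0505). In cells with OHT, Mesp1 had an adjusted p of up to 0.157 and Tbx6 of 0.0558 in limma, without replicate 1 and replicate 2 of +OHT, and Frzb of 0.0827 without replicate 1 of +CHX +OHT.

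The 2 members that were higher with CHX in both OHT states were forkhead factors. Foxf1 was at 85.9 and 89.7 with CHX and 17.8 and 27.7 without it in cells without OHT (1.25, SE 0.32, limma adjusted p = 0.014), and at 133 and 237 and 39.9 and 110.3 in cells with OHT (1.12, SE 0.32, limma adjusted p = 0.0186). Foxc2, a factor of paraxial and vascular mesoderm, was at 39.1 and 25.8 with CHX and 6.93 and 2.12 without it in cells without OHT (0.96, SE 0.21, limma adjusted p = 0.00651), and at 209.6 and 145 and 25.4 and 41.1 in cells with OHT (1.79, SE 0.21, limma adjusted p = 0.000129). The CHX arrays of both genes lay above their counterparts without CHX in both OHT states. Foxf1 lost its call without OHT when replicate 1 of NERT mesoderm -OHT was left out (limma adjusted p = 0.0842), or replicate 1 or 2 of +CHX -OHT (0.072 and 0.0633), and Foxc2 without replicate 1 of +CHX -OHT (0.0734). With OHT, Foxf1 lost it without replicate 1 of +OHT or replicate 2 of +CHX +OHT (0.152 and 0.134). In cells without OHT a weaker probe set of Foxf1 gave 0.05 (SE 0.16, limma adjusted p = 0.848). In cells with OHT the mean of the Foxf1 probe sets gave 0.51 and was not called (limma adjusted p = 0.0659).

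Nkx1-2 was not called with CHX in cells without OHT and was higher with CHX in cells with OHT. Without OHT it was at 365 and 204 with CHX and 547 and 401 without it (-0.73, SE 0.26, limma adjusted p = 0.0576), a change that was called after quantile normalisation (-0.85, limma adjusted p = 0.0327) and as the mean of its probe sets (-0.43, 0.0291). With OHT it was at 514 and 372 with CHX and 189.8 and 205 without it (1.06, SE 0.26, limma adjusted p = 0.00924). With OHT the groups did not overlap and CHX arrays were higher, a call lost without replicate 1 of +OHT (limma adjusted p = 0.0504) or of +CHX +OHT (0.0711). Kdr was at 462 and 322 with CHX and 229 and 277 without it in cells without OHT (0.57, SE 0.22, limma adjusted p = 0.0671). A probe set of Pax3 that was not the strongest gave 1.54 (SE 0.15, limma adjusted p = 6.71e-05), whereas the strongest gave 0.00 and the other one -0.26 (SE 0.18, limma adjusted p = 0.301).

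Of the other lists, 5 of the 24 streak signals were lower and 3 higher with CHX in cells without OHT, led by Cyp26a1 (-2.42), Rspo3 (-2.08) and Fgf8 (-1.64), with Otx2 higher (1.44). Among pluripotency markers 6 were higher and 3 lower, and their summed intensity was 26521 to 33584 with CHX and 24871 to 27910 without it. Over all probe sets tested, 19.6% were higher and 11.3% lower in this comparison. Neuroectoderm markers had 3 higher, Sox1 (2.25), Zic1 (1.61) and Pax6 (1.58), and 1 lower among 9 tested. Endoderm markers had 3 higher and 0 lower among 10 tested. Blood and endothelium markers had 2 higher and 1 lower among 9, and muscle and mural markers 2 higher and 2 lower among 11. Their part in the members' changes was not tested.

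OHT changed few members. In NERT mesodermal cells without CHX, 3 were higher with OHT (0.573% of all probe sets tested were) and 0 lower (0.251% of all), with a median of 0.05 against -0.04 over all probe sets. With CHX, 5 were higher (0.53% of all) and 0 lower (0.0426% of all), with a median of 0.18. An unadjusted p under 0.05 in limma was found for 14 of the 26 members without CHX (7.74% of all probe sets). With CHX it was found for 12 (5.56% of all), and in each comparison 15 members lay above 0 and 11 below. Myf5 and Frzb were higher with OHT in both comparisons, which share no array. They are 66.7% of the 3 members and 40% of the 5. Here too the spread came from the same fit, and the overlap over all probe sets was not counted.

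Myf5, the earliest of the muscle determination factors, was at 67.0 and 80.2 with OHT and 13.9 and 16.7 without it in NERT mesodermal cells without CHX (1.29, SE 0.16, limma adjusted p = 0.0032). With CHX it was at 89.3 and 79.2 with OHT and 12.3 and 5.74 without it (1.69, SE 0.16, limma adjusted p = 0.000477). The 4 arrays with OHT lay above the 4 without it, and these calls held whichever array was left out (limma, adjusted p at most 0.0489 and 0.0134). In the 6 ESC arrays and the 2 control mesodermal arrays Myf5 read between 2.79 and 6.83, and the probe set passed the filter through its OHT groups alone.

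Frzb was at 223 and 245 with OHT and 91.3 and 116 without it in cells without CHX (1.02, SE 0.17, limma adjusted p = 0.017), and at 141 and 156 with OHT and 63.4 and 75.1 without it in cells with CHX (0.88, SE 0.17, limma adjusted p = 0.0481). The groups did not overlap in either setting. A weaker probe set of Frzb gave 0.85 (SE 0.17, limma adjusted p = 0.0465) and 0.97 (SE 0.17, limma adjusted p = 0.0279). Without CHX the call was lost without replicate 1 or 2 of -OHT (limma adjusted p = 0.248 and 0.0502) or of +OHT (0.0696 and 0.114), and with CHX it was lost with any of the 8 replicated mesoderm arrays left out (0.0603 to 0.468).

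Cdx1 was at 216 and 182 with OHT and 81.5 and 81.0 without it in cells without CHX (1.07, SE 0.20, limma adjusted p = 0.041), with no overlap. With CHX it was at 60.9 and 101 with OHT and 53.1 and 38 without it (0.57, SE 0.20, limma adjusted p = 0.65). The call without CHX was lost without replicate 1 or 2 of -OHT (limma adjusted p = 0.268 and 0.175), of +OHT (0.236 and 0.123) or of +CHX -OHT (0.0722 and 0.0718).

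Foxc2, Apln and Aplnr were called with CHX and, at the pseudocount of 25, not without it. Foxc2 was at 209.6 and 145 with CHX and OHT and 39.1 and 25.8 with CHX alone (1.81, SE 0.21, limma adjusted p = 0.00204), and at 25.4 and 41.1 with OHT and 6.93 and 2.12 without it in cells without CHX (0.97, SE 0.21, limma adjusted p = 0.0773). With a pseudocount of 5 the change without CHX was 2.02 and was called (limma adjusted p = 0.0357). Foxc2 arrays with OHT lay above those without it in both settings, and its call with CHX held whichever array was left out (limma, adjusted p at most 0.0383). Its relative Foxc1 was at 105 and 140.1 with CHX and OHT, against 50.8 and 46.7 with CHX alone, and was not called (0.99, SE 0.25, limma adjusted p = 0.206).

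Apln was at 437 and 379 with CHX and OHT and 129 and 119.7 with CHX alone (1.53, SE 0.28, limma adjusted p = 0.0389). Without CHX it was at 857 and 541 with OHT and 849.7 and 469 without it (0.10, SE 0.28, limma adjusted p = 1), where the arrays overlapped. Aplnr was at 187 and 223 with CHX and OHT and 108 and 75.8 with CHX alone (0.99, SE 0.19, limma adjusted p = 0.0481), and a weaker probe set gave 0.12 (SE 0.19, limma adjusted p = 0.974). Apln lost its call when replicate 1 or 2 of +CHX -OHT was left out (limma adjusted p = 0.258 and 0.241) or of +CHX +OHT (0.245 and 0.0535), and Aplnr lost its call with any of the 8 replicated mesoderm arrays left out (0.0602 to 0.37).

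**Figure D4:**
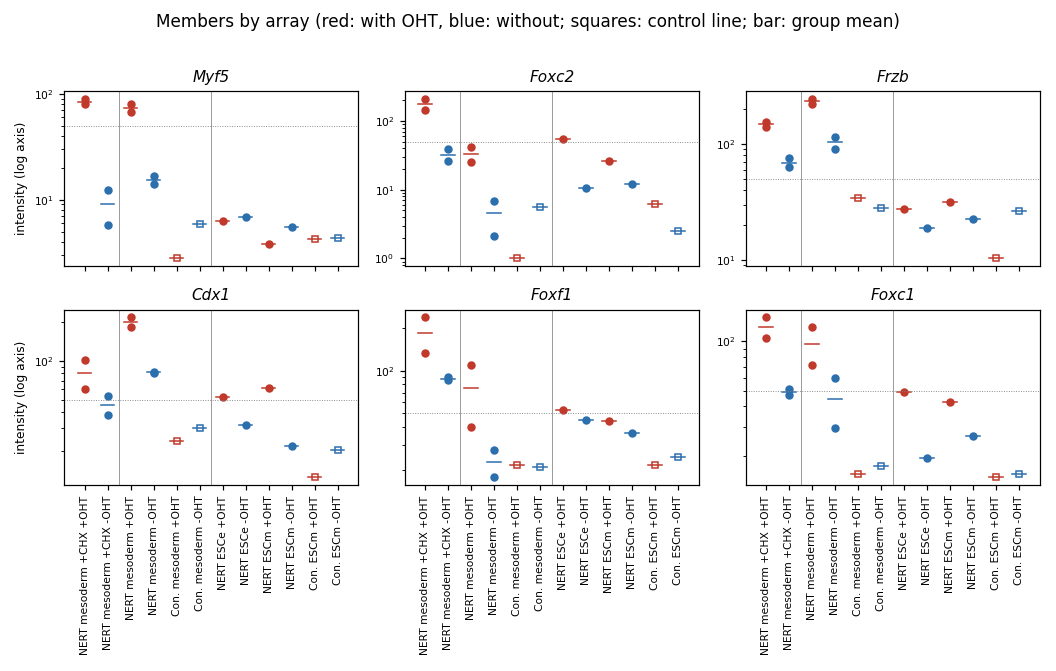
Intensity on a log axis, scaled for each gene, of 6 members in every array of the 12 groups, with OHT in red and without in blue, control cells as open squares, bars for group means and a dotted line at the filter value of 50. Myf5 stands between 67.0 and 89.3 in NERT mesodermal cells with OHT and at 16.7 or less in the other arrays.

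The response to OHT with CHX minus that without CHX was called for 0 members (0.0426% of all probe sets were called, and 5 members had an unadjusted p under 0.05 in limma). The largest differences among members were those of Nkx1-2 (1.78, SE 0.37, limma adjusted p = 0.332) and Apln (1.43, SE 0.39, limma adjusted p = 0.682). Nkx1-2 was at 189.8 and 205 with OHT and 547 and 401 without it in cells without CHX, with no overlap (-1.15, SE 0.26, limma adjusted p = 0.092). Pdgfra (-1.07, SE 0.28) and Tcf15 (-1.0, SE 0.25) had negative values of like size that did not pass either, and Tcf15 was at 326 and 286 with OHT, against 745 and 544 without it.

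The 6 tested streak factors did not pass in either OHT comparison, though Nkx1-2 did without CHX as the mean of its probe sets (-0.66, limma adjusted p = 0.0462). Nkx1-2 also passed there in a fit of the 8 NERT mesoderm arrays with a block for the replicate number (-1.15, limma adjusted p = 0.0197). Without CHX, the changes with OHT were 0.03 (SE 0.25) for Mixl1, -0.24 (SE 0.19) for Eomes, -0.60 (SE 0.25) for Evx1, -0.56 (SE 0.21) for Gsc, -0.11 (SE 0.23) for Lhx1 and -1.15 (SE 0.26) for Nkx1-2. Among the 24 streak signals, Dkk1 (-1.61), Cyp26a1 (-1.49) and Sp5 (-1.11) were lower and Hes7 (1.30) and Snai1 (0.97) higher with OHT. With CHX 0 of these signals was called in either direction. Of the 20 pluripotency markers 0 was called with OHT in cells without CHX, and their summed intensity was 24795 to 27392 with OHT and 24871 to 27910 without it.

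In NERT ESC, averaged over ESCe and ESCm, 0 members were called with OHT (0.294% of all probe sets were, and 4 members had an unadjusted p under 0.05 in limma). Pdgfrb had the largest change there (1.05, SE 0.23, limma adjusted p = 0.185), at 251 and 249.8 with OHT, against 127 and 92.2 without it, in ESCe and ESCm. In control cells 0 members were called with OHT (0% of all probe sets were called in limma, with 220 probe sets and 0 members at an unadjusted p under 0.05). The response of NERT mesodermal cells minus that of control mesodermal cells was called for 0 members (0.0619% of all, with 6 members at an unadjusted p under 0.05 in limma), Myf5 having a difference of 1.44 (SE 0.27, limma adjusted p = 0.196). Minus that of NERT ESC it was called for 0 (0.0116% of all, with 8 members at an unadjusted p under 0.05 in limma). ESCe against ESCm gave 0 members (0% of all, with 451 probe sets and 0 members at an unadjusted p under 0.05).

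RBP-J recognises the core TGGGAA, which was searched on both strands, as were the other motifs. In the RefSeq promoter table (GRCm38.p6, 250 bases before to 50 after each start), 22 of the 37 members had an entry, and 10 of these, or 45.5%, held the core, against 25.6% of 32851 promoters. They were Frzb, Kdr, Evx1, Hand2, Myf5, Msgn1, Meox2, Gsc, Foxc1 and Nkx2-5. The TCF/LEF core CTTTGA was in 5 of 22 (22.7%, against 16% of all promoters). The T-box letters GGTGTGA were in 1 of 22 (4.55%, against 3.98%), and these motifs do not contain each other. A match is a run of letters and not a measured site. The stretches below run 100 bases before to 30 after the start and are shown for Myf5 and Frzb, which were higher with OHT with and without CHX, for Apln, higher with OHT in the presence of CHX, and for Evx1, which holds the core and was not called with OHT. Capitals mark the RBP-J core.
Myf5, chr10:107486105-107486234, minus strand: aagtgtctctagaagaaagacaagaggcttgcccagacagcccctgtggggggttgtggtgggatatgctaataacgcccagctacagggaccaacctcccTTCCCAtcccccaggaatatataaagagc
Frzb, chr2:80447367-80447496, minus strand: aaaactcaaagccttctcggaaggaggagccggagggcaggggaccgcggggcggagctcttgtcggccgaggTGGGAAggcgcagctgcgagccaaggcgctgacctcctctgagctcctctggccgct
Apln, chrX:48034824-48034953, minus strand: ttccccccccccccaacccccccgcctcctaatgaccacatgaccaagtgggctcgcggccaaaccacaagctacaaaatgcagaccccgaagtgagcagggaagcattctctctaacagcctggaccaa
Evx1, chr6:52313398-52313527, plus strand: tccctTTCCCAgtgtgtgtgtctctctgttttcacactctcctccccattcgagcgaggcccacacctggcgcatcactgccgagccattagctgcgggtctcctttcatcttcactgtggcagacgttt
Counted with the start as position 1, the core begins at position 2 in Myf5, at -27 in Frzb and at -95 in Evx1. The 300 bases of Apln hold no copy of these letters.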

How the data were processed

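RNA of the 16 samples was hybridised to Affymetrix Mouse Genome 430 2.0 arrays. The authors deposited linear model-based expression intensities, computed with dChip after invariant-set normalisation, for which control mesoderm +OHT was the baseline array. Intensities were used without rescaling. No read depth applies, and the number of arrays limits the precision. Detection calls were not used here. The platform annotation gave 1 symbol to 34945 of 45037 probe sets, several to 932 and none to 9160, and 34741 of the first were found in the RefSeq gene table (GRCm38.p6).

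Samples were grouped by their labels into 12 conditions. Values were tested on the scale log2(value + 25) in R 4.3.3 with limma 3.58.1 (lmFit, then eBayes with an intensity trend), over 25847 probe sets, two-sided, with Benjamini-Hochberg adjustment over all of them. The study's methods used no test, and therefore no replicate block. A simulation with known changes was run for each comparison: the share of 2-fold changes recovered was 84% for OHT in mesodermal cells, 78% with CHX, 78% for CHX without OHT, 47% for day 4 against day 0 in NERT cells, 74% in control cells, 59% between the lines and 11% for the difference of the day 4 changes, and of 4-fold changes 83% for the last of these and 100% for the others named. The simulated noise was normal, and changes were planted in fewer probe sets than were called in the CHX comparisons and in day 4 against day 0. The recovered shares need not hold there. Tables, promoter searches and figures were made with Python 3.11.15, numpy 2.4.6, pandas 2.3.3 and matplotlib 3.10.9.

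The members and the other gene lists were chosen with earlier results of these data known. Members called in OHT, CHX without OHT, day 4 or line comparisons are given by array, the others by ranges and counts, and other lists by counts and up to 4 genes with the largest changes. Hes5 and Nrarp check the induction. Further probe sets of members, and the list gene Snai1, named beyond that rule, were chosen after their values were seen. Alternatives changed the filter, the pseudocount, the normalisation, the variance prior, the probe sets of a gene and the arrays in the fit.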

Additional observations from a re-analysis of the deposited data

Results flagged for a closer look

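Aplnr was set apart because its change between day 4 and day 0 differed between the lines by a test of the difference itself. Without OHT, the NERT line's change exceeded that of the control line by 3.37 on the log2 scale (SE 0.35, limma adjusted p = 0.018). NERT mesodermal cells stood at 1005 and 1098 and NERT ESCm at 5.94, whereas control mesodermal cells stood at 68.1 and control ESCm at 2.59. The call was lost in 4 of the fits that leave out 1 array, with adjusted p in limma of 0.052 and 0.066 without replicates 1 and 2 of NERT mesoderm -OHT.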

How the results depend on the processing

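Members called with OHT in mesodermal cells without CHX numbered 3, or 1 with a filter at a group mean of 100 and 1 to 4 with 1 array left out. With CHX they numbered 5, or 2 with no filter and 2 with the filter at 100, 3 with a pseudocount of 5, 3 after quantile normalization, 3 in a fit of the 8 NERT mesoderm arrays alone with no replicate block, and 2 to 3 with 1 array left out. For CHX without OHT the 15 calls became 9 to 16 with 1 array left out, the 9 being without +CHX -OHT replicate 1, and for NERT against control mesodermal cells the 9 became 5 to 10 (5 without replicate 1 of -OHT). The difference of the day 4 changes had 1 call, 0 with no filter and 0 to 2 with 1 array left out. The OHT response of NERT minus control mesodermal cells had 0 calls, and 1 (Myf5, 1.37, limma adjusted p = 0.0108) where differences between OHT responses count as spread. Pax3 with CHX without OHT was 0.43 as the mean of its probe sets (limma adjusted p = 0.0166), against 0.00 for the strongest. The causes were not tested. The 17 day 4 calls in the NERT line were retained with any of the 8 replicated arrays left out. None of these arrays enters the control line's changes, and of them only the NERT mesoderm -OHT arrays enter those of the NERT line. The single ESCm array behind the NERT line's changes was never left out. With the control arrays without OHT alone, Apln, Gsc and Nkx1-2 lost their call in the control line (limma adjusted p = 0.0581, 0.205 and 0.172).

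Arrays of the same replicate number correlated between -OHT and +OHT (r = 0.493 over 25847 probe sets, deviations from group means), whereas the other 5 pairs of groups had 0.0115 to 0.203, so the samples share a number and no pairing is established. With the replicate block, 5 members were called with OHT without CHX, Nkx1-2 (-1.15, limma adjusted p = 0.0197) and Foxc2 (0.97, 0.0418) being added. Foxc1 with OHT under CHX (0.99, 0.0412), Nkx1-2 and Frzb with CHX without OHT (-0.73 and -0.45) and Cdx2 and Apln with CHX and OHT (-0.96 and -0.71) were also added, and 0 calls were lost under the block.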
